A study of Arabidopsis thaliana with 42 samples.

Results

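Messenger RNA of link1link2 double-mutant seedlings was compared with that of wild-type seedlings at a single time of day, the afternoon of a long day, 10 h after lights on (zeitgeber time 10, ZT10). The comparison rested on 6 of the 42 libraries of the study, 3 of link1link2 and 3 of wild type. They were chosen by the line name and time written in their column names. Both groups were Arabidopsis thaliana of the Col-0 ecotype, 9 days old, grown on MS medium at 22 °C in cycles of 16 h light and 8 h dark. No treatment was given to either group. Of the remaining libraries, 30 came from the same genotypes at 5 other times of the long day and 6 from plants in continuous light. The genes that the labels call LINK1 and LINK2 were taken to be LNK1 and LNK2. The labels did not name the mutant alleles. Columns of the mutant carry a name that is not in the labels, and they were assigned to link1link2 by elimination. The labels do not say whether the 3 replicates were grown separately, and p-values rest on a spread between libraries that may be technical.

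LNK proteins are transcriptional coactivators without a DNA-binding domain of their own. They are recruited by MYB-like factors of the REVEILLE family such as RVE8 and RVE4, which bind the evening element, a short sequence in the promoters of genes expressed in the afternoon and evening. CCA1 and LHY, relatives of RVE8, bind the same element and repress such genes in the morning, and the products of the afternoon genes in turn repress CCA1, LHY and each other.

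The ZT10 libraries held 8607187, 8065385 and 9974826 counts in link1link2 (replicates A, B and C), against 9068191, 7724307 and 12109520 counts in wild type. Wild-type replicate B stood apart from the other libraries. Its chloroplast-encoded loci took 3.31% of all counts and its nuclear ribosomal RNA loci 2.48%, against 0.429% to 1.07% and 0.419% to 1.03% in the other 5. Counts of replicate B differed from those of wild-type A and C by a chi-square per degree of freedom of 20.14 and 23.86, whereas the remaining pairs within a genotype lay between 2.48 and 3.84. The summed level of 12 root markers spanned 3478 to 3863 CPM in link1link2 and 3435 to 3795 CPM in wild type, that of 7 markers of dividing cells 244 to 293 CPM and 254 to 289.7 CPM. Among these markers 1, SCR, passed the test described next, which called 22.1% of all genes tested. CPM are counts scaled to library size with TMM factors, which correct for differences in library composition. In RNA of many cells, fewer cells of a type and less RNA per cell cannot be told apart.

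At ZT10, 4541 of the 20518 genes tested differed between link1link2 and wild type (22.1%, edgeR quasi-likelihood test with Benjamini-Hochberg adjusted p under 0.05, termed called). Of these, 2338 (11.4%) were higher in link1link2 and 2203 (10.7%) were lower. Past the threshold and at least 2-fold apart (3.75%) were 445 genes that were higher (2.17%) and 325 that were lower (1.58%). Libraries of the genotypes did not overlap for 38.2% of the genes, 19.3% higher and 18.9% lower. The median log2 fold change over all genes was -0.004. Without wild-type replicate B, 3908 genes were called (18.9%, with 10.7% higher and 8.15% lower), of which 3689 were among the 4541, each with the same sign. The fit held all 36 long-day libraries, so that the 12 groups of genotype and time shared the estimate of the spread.

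Genes were next grouped by the time of day at which they were highest in wild type among the other 5 times. Among the 1491 genes that varied at least 2-fold over those times and were highest at ZT2, 46.9% were higher in link1link2 at ZT10 and 1.61% were lower, with a median log2 fold change of 0.39. Of the 1410 genes highest at ZT6, 10.8% were higher and 28.7% lower. Of the 966 genes highest at ZT14, 10.2% were higher and 32.2% lower. The share was 11% higher and 19.8% lower for the 946 genes highest at ZT18, and 8.46% higher and 16.5% lower for the 934 highest at ZT22. Genes under 2-fold over the 5 times, 14771 in number, gave 8.16% higher and 7.60% lower. Genes with a maximum at ZT2 were thus more often called higher than lower, and those of each other time more often lower than higher.

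The LNK family was examined first. LNK1 had 30.3, 29.8 and 33.1 CPM in link1link2, against 40.8, 38.7 and 37.7 CPM in wild type, and LNK2 had 20.6, 20.7 and 18.4 CPM in link1link2, against 41.2, 29.996 and 28.5 CPM in wild type. Neither gene's groups overlapped, which held for 38.2% of all genes tested. Both transcripts fell, LNK1 with a log2 fold change of -0.33 ± 0.08 (SE, adjusted p = 0.00258) and LNK2 with -0.74 ± 0.14 (adjusted p = 0.000182). The difference of LNK1 changed sign over the day. LNK1 averaged 74.1 CPM in link1link2 and 252 CPM in wild type at ZT2, but 26.2 and 4.58 CPM at ZT14, where it was higher in link1link2, as it was at ZT18 and ZT22 (log2 fold changes of 2.48, 3.36 and 1.56). LNK2 averaged 11.9 CPM in link1link2 and 729.5 CPM in wild type at ZT2, and 25.1 and 7.58 CPM at ZT14. The wild-type level of both genes at ZT10 was thus far under that of the morning. Whether the remaining reads come from disrupted transcripts was not examined. LNK3, a shorter relative, had 11.7, 13.4 and 10.8 CPM in link1link2, against 0.782, 0 and 0.578 CPM in wild type, and LNK4 had 22.3, 21.2 and 22.1 CPM in link1link2, against 2.12, 3.06 and 1.82 CPM in wild type. Every link1link2 library lay above every wild-type library for these relatives, as for 19.3% of all genes tested. LNK3 and LNK4 both rose (4.55 ± 0.23 and 3.28 ± 0.16, adjusted p = 5.98e-20 and 5.89e-21). LNK4 averaged 76.3 CPM in link1link2 and 88.7 CPM in wild type at ZT2, and 21.9 CPM in link1link2 and 2.33 CPM in wild type at ZT10. LNK3 overlaps a neighbouring locus whose long-day counts came to 45.98% of its own.

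Genes for the MYB-like factors of dawn were mostly above their wild-type level. Of the 10 genes, 7 were higher and 1 lower, against 11.4% and 10.7% of all genes tested. The other 2 were not called, and the list had a median log2 fold change of 0.75. CCA1, a repressor of evening genes, had 12.6, 11.8 and 12.5 CPM in link1link2, against 1.45, 2.36 and 2.48 CPM in wild type. LHY, its partner, had 8.59, 9.26 and 8.05 CPM in link1link2, against 1.23, 1.81 and 2.89 CPM in wild type. For both, the lowest link1link2 library was over the highest wild-type library, as for 19.3% of all genes tested. The log2 fold changes of CCA1 and LHY were 2.53 ± 0.19 (adjusted p = 5.76e-14) and 2.04 ± 0.20 (adjusted p = 5.24e-11). At ZT2, the wild-type maximum of CCA1, it averaged 180.5 CPM in link1link2 and 405 CPM in wild type, so that the afternoon excess went with a lower morning level. RVE8, the activator to which LNK proteins bind, had 16.7, 15.8 and 14.5 CPM in link1link2, against 1.45, 2.08 and 2.4 CPM in wild type and rose by a log2 fold change of 2.95 ± 0.17 (adjusted p = 5.51e-18). RVE4, an activator related to RVE8, rose less, with 47.8, 44.9 and 43.4 CPM in link1link2, against 28.4, 28.3 and 24.5 CPM in wild type (0.75 ± 0.08). RVE1 rose as well (0.74 ± 0.16). RVE2 fell, with 28.9, 29.2 and 27.2 CPM in link1link2, against 54.98, 62.4 and 60.2 CPM in wild type (-1.06 ± 0.10, adjusted p = 8.02e-11). AT5G52660 (0.09 ± 0.13, adjusted p = 0.689) and RVE7 (-0.22 ± 0.12, adjusted p = 0.205) were not called. The remaining members, ASG4 and AT4G01280, were higher (2.93 and 0.71). Each of them overlaps a neighbour with over 8 times its counts, which leaves their values uncertain.

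Over all genes tested, 10.7% were lower and 11.4% higher at ZT10. Among 15 genes of the day and evening loops, 12 were lower in link1link2, 1 was higher and 2 were not called. Their median log2 fold change was -1.59. COR27 encodes a cold-regulated protein that represses TOC1 and PRR5. It had 0.119, 0.127 and 0.212 CPM in link1link2, against 57.2, 60.1 and 62.5 CPM in wild type. Its log2 fold change of -8.47 ± 0.22 (adjusted p = 6.45e-30) was the lowest of the list. It rested on 4 counts over the 3 link1link2 libraries and 1701 over the 3 wild-type libraries. With so few counts in link1link2, the size of this change is known less closely than the SE states. AT4G33980, which is on the same list, had 0.477, 1.39 and 0.424 CPM in link1link2, against 38.4, 40.97 and 40.5 CPM in wild type (-5.73 ± 0.22). Both transcripts stood under 2 CPM in each link1link2 library.

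FKF1, a blue-light receptor that marks repressors of flowering for degradation, had 4.53, 5.83 and 5.83 CPM in link1link2, against 123, 121 and 126 CPM in wild type (-4.51 ± 0.13, adjusted p = 1.84e-27). It overlaps MAP70-1 by 21 bases, and that locus held 356% of the long-day counts of FKF1. The related ZTL had 42.5, 46.02 and 45.98 CPM in link1link2, against 51.1, 53.3 and 46.8 CPM in wild type, and LKP2 18.7, 15.97 and 19.8 CPM in link1link2, against 21.01, 19.7 and 18.7 CPM in wild type. Neither was called, at log2 fold changes of -0.16 ± 0.07 (adjusted p = 0.119) and -0.11 ± 0.10 (adjusted p = 0.456). Within this family of F-box receptors, the transcript that was called was thus FKF1.

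The evening complex is a repressor built of ELF3, ELF4 and LUX. ELF4 had 13.003, 11.9 and 12.7 CPM in link1link2, against 111, 124 and 130.4 CPM in wild type (-3.28 ± 0.10, adjusted p = 2.3e-27). LUX, its DNA-binding member, had 39.96, 39.05 and 43.6 CPM in link1link2, against 99.3, 104 and 105 CPM in wild type (-1.33 ± 0.07, adjusted p = 1.47e-18), and BOA, a close relative of LUX, had 3.94, 4.56 and 3.6 CPM in link1link2, against 16.6, 21.2 and 20.4 CPM in wild type (-2.27 ± 0.16). ELF3, the scaffold of the complex, fell by less, with 87.9, 81.9 and 85.2 CPM in link1link2, against 118, 117 and 119 CPM in wild type (-0.47 ± 0.06). All 4 genes were lower in each link1link2 library than in each wild-type library, as were 18.9% of all genes tested.

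The pseudo-response regulators repress CCA1 and LHY in sequence through the day. TOC1, the evening member, had 57.02, 55.3 and 58.3 CPM in link1link2, against 243, 234 and 245 CPM in wild type (-2.08 ± 0.06, adjusted p = 1.24e-28). PRR5 had 12.3, 17.2 and 15.04 CPM in link1link2, against 112, 99.7 and 110.2 CPM in wild type (-2.86 ± 0.10, adjusted p = 9.06e-26), and PRR3 had 20.2, 21.6 and 18.6 CPM in link1link2, against 64.6, 56.4 and 59.8 CPM in wild type (-1.59 ± 0.11). The groups were separate for all 3 genes, with link1link2 lower, as for 18.9% of all genes tested. PRR7 differed little, with 120.4, 123 and 129 CPM in link1link2, against 174, 142 and 145 CPM in wild type (-0.31 ± 0.08, adjusted p = 0.0034), and its call was lost without wild-type replicate A (log2 fold change -0.21). PRR9, the earliest member, was the exception of the list, with 10.97, 8.75 and 10.5 CPM in link1link2, against 2.01, 1.81 and 1.74 CPM in wild type (2.45 ± 0.20, adjusted p = 1.25e-13). GI, which acts with FKF1 in flowering and stabilises ZTL, had 103, 106 and 119 CPM in link1link2, against 195, 186 and 201 CPM in wild type (-0.83 ± 0.10).

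**Figure D1:**
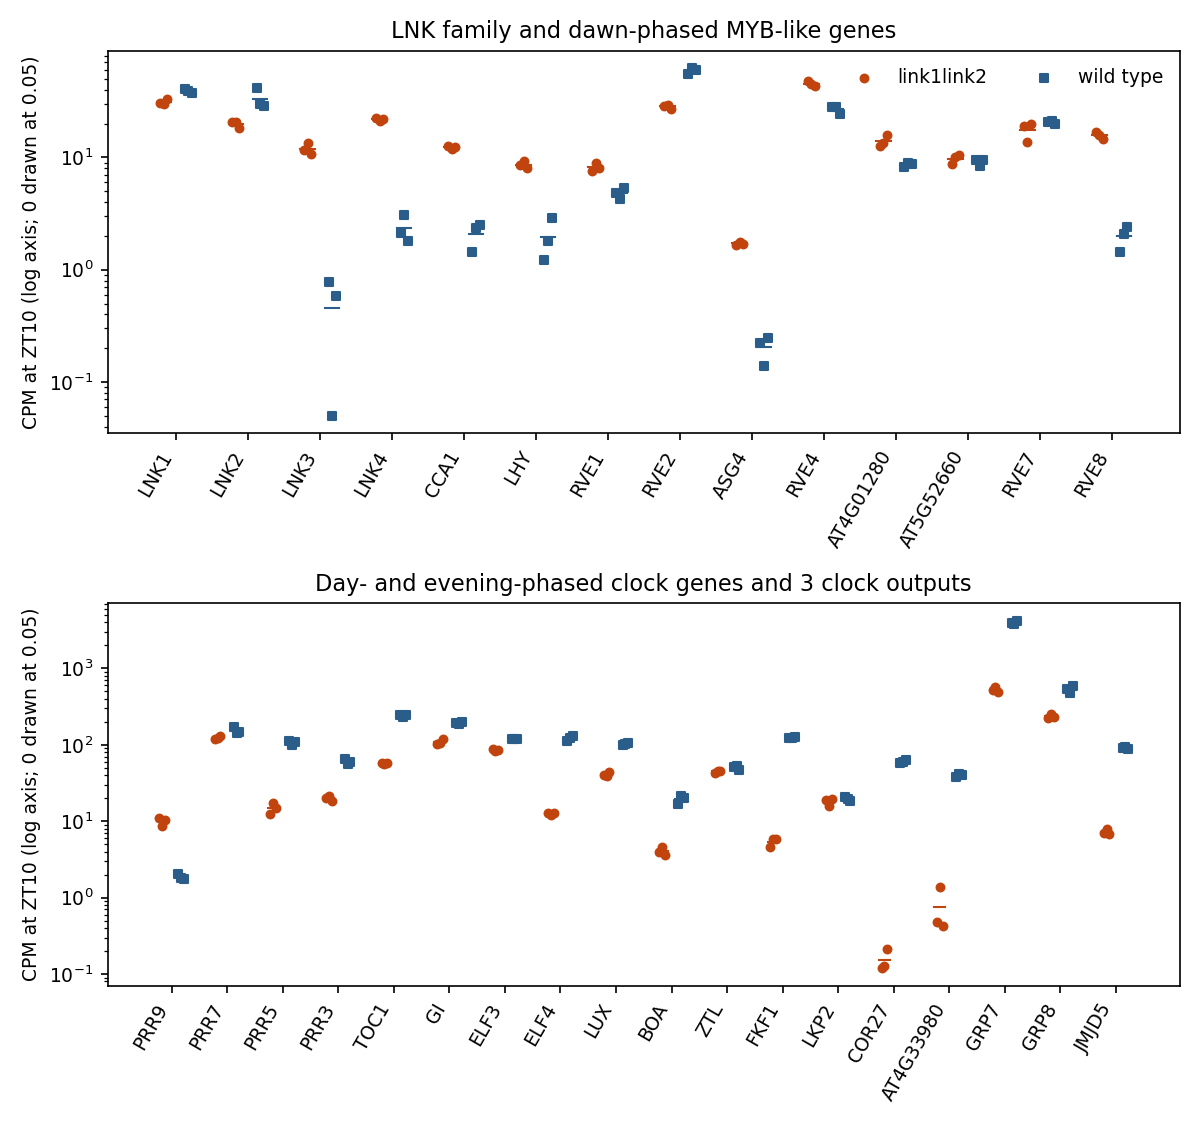
CPM of each ZT10 library on a log axis, with link1link2 (circles) left of wild type (squares) for every gene and short bars at the means of 3 libraries. The upper panel holds the LNK family and the dawn MYB-like genes, the lower panel the day and evening genes with 3 clock outputs; LNK3, LNK4, CCA1, LHY and RVE8 sit above wild type, and COR27, FKF1, ELF4 and PRR5 below it.

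Outputs of the clock were lower too. GRP7, an RNA-binding protein that feeds back on its own transcript, had 515, 564 and 494 CPM in link1link2, against 3976, 3852 and 4234 CPM in wild type (-2.94 ± 0.11, adjusted p = 5.92e-21). This was the largest drop in CPM among the genes tested. GRP8, its homologue, had 223, 253 and 231 CPM in link1link2, against 534, 482 and 597 CPM in wild type (-1.19 ± 0.10). JMJD5, a histone demethylase with an evening rhythm, had 6.92, 7.99 and 6.78 CPM in link1link2, against 90.2, 93.2 and 87.8 CPM in wild type (-3.65 ± 0.12, adjusted p = 1.07e-25). The ELF4 homologues differed among themselves: ELF4-L4 fell (-0.997 ± 0.14), ELF4-L2 passed the test narrowly (-0.34 ± 0.12, adjusted p = 0.0394) and lost it without any 1 of the ZT10 libraries. ELF4-L1 (-0.47) and ELF4-L3 (-0.10) were not called, and neither was CHE, a repressor of CCA1, at 55.1 against 57.7 CPM in link1link2 and wild type. Of the 8 output genes, 0 were higher and 5 lower, against 11.4% and 10.7% of all genes tested. Without wild-type replicate B 4 were lower, against 8.15% of all genes.

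The day profiles placed these differences in time. In link1link2, COR27 stood at 0.0821 CPM at ZT6, 0.153 CPM at ZT10, 1.31 CPM at ZT14 and 6.82 CPM at ZT18. In wild type it stood at 0.631, 59.9, 19.9 and 19.03 CPM at the same times. The ZT10 maximum of wild type was not seen in link1link2. TOC1 was highest at ZT22 in link1link2, at 136 CPM, and at ZT10 in wild type, at 241 CPM. LUX was likewise highest at ZT22 in link1link2, at 75.6 CPM, and at ZT10 in wild type, at 103 CPM. JMJD5 was highest at ZT22 in link1link2, at 67.2 CPM, and at ZT14 in wild type, at 142 CPM.

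The same 15 day and evening genes were counted at other times. At ZT2, 3 were higher and 1 lower, where 8.53% and 7.58% of all genes were called. Of the 15 genes at ZT6, 0 were higher and 11 lower, where 10.1% and 9.98% of all genes were called. At ZT14, 4 were higher and 7 lower, against 7.72% and 6.98% of all genes. At ZT18 it was 7 higher and 2 lower, against 10.6% and 9.59%. At ZT22 the count was 11 higher and 0 lower, against 16.6% and 14.1%. These times do not share libraries with ZT10. More members were thus lower than higher at ZT6, ZT10 and ZT14, and more were higher than lower at ZT18, ZT22 and ZT2.

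**Figure D2:**
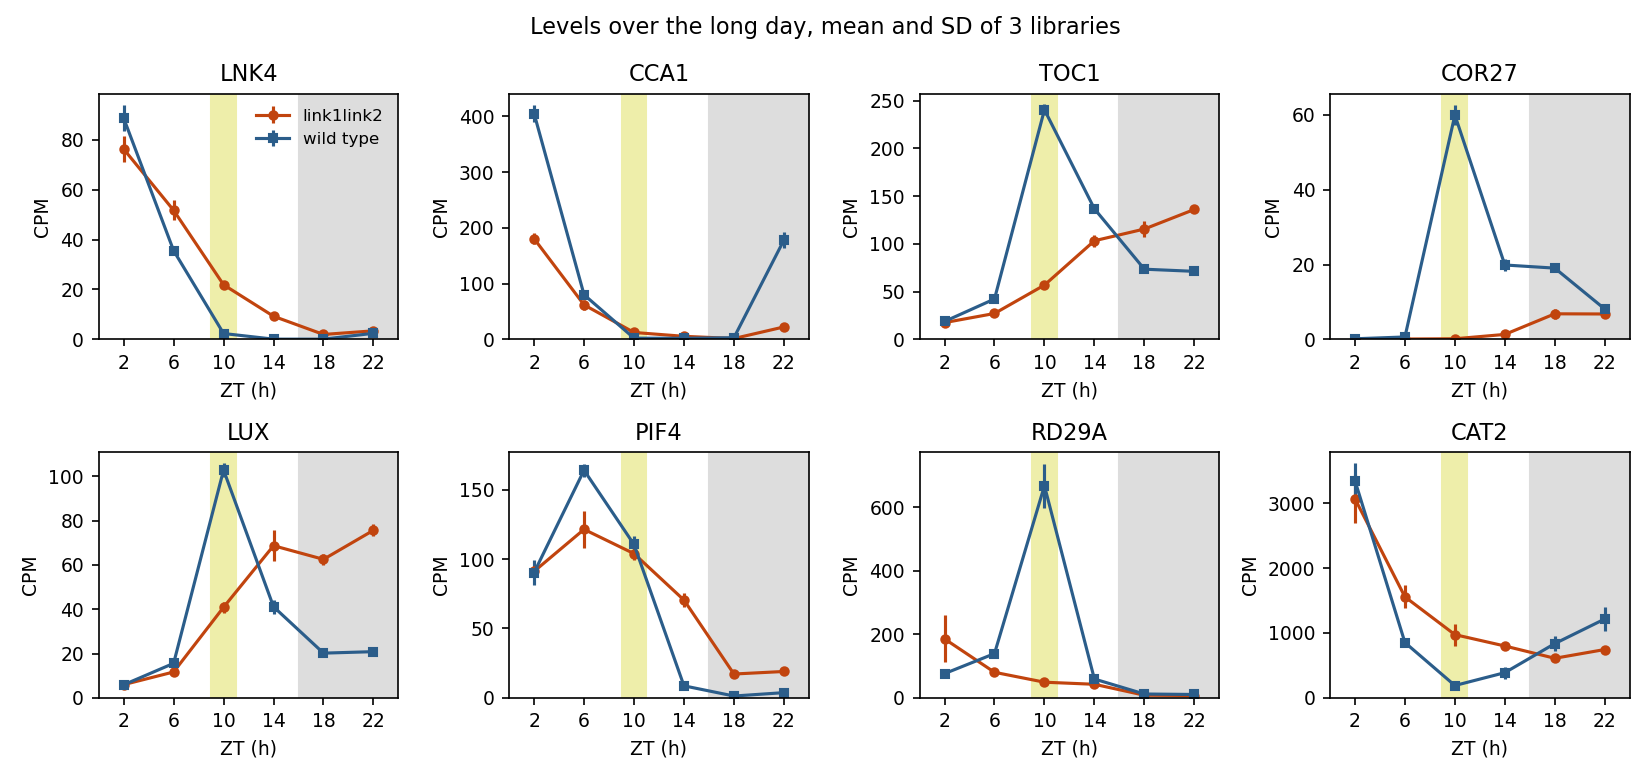
Mean CPM with the SD of 3 libraries over the long day for 8 genes, link1link2 in circles and wild type in squares, with ZT10 shaded yellow and the night grey. At ZT10, LNK4, CCA1 and CAT2 lie above wild type, TOC1, COR27, LUX and RD29A below it, and PIF4 near it.

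Because the binding site of RVE8, CCA1 and LHY is known, promoters were searched for the evening element, AAATATCT or AGATATTT on the other strand. A promoter was taken as 300 bases, from 270 before to 30 after the start of the gene in the RefSeq annotation of assembly TAIR10.1. Positions are counted from that start, which is 0, and are negative before it, at the first base of the match on the strand of the gene. The promoters of 5 clock and output genes that were lower at ZT10, and that of LNK3 as a gene that was higher, are printed 5′ to 3′ on the strand of the gene, with the evening element in capitals. FKF1 (chr1:25508369-25508668 on the plus strand) held 3 matches, at -240, -186 and 0. GRP7 (chr2:9266528-9266827 on the minus strand) held 3, at -76, -55 and -30. LUX (chr3:17182772-17183071 on the plus strand) held 2, at -70 and -52, TOC1 (chr5:24674693-24674992 on the plus strand) 1, at -151, and JMJD5 (chr3:7275375-7275674 on the plus strand) 1, at 11. LNK3 (chr3:3923245-3923544 on the plus strand) held none in this window. The printed promoters are examples and do not stand for their lists. Of the lower genes, 7 of 12 day and evening genes and 3 of 5 output genes held the element, against 16.9% of all lower genes. It was in 0 of the 2 lower LNK genes and 0 of 1 lower dawn gene. Of all higher genes 4.13% (94 of 2275) held it, COL2, BBX24 and CYP79B2 among them.
FKF1: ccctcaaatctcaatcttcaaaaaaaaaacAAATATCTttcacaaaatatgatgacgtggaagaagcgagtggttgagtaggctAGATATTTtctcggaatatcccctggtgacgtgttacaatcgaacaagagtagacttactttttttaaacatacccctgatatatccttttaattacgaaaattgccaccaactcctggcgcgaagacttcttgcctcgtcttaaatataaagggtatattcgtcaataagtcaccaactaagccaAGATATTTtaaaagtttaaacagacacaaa
GRP7: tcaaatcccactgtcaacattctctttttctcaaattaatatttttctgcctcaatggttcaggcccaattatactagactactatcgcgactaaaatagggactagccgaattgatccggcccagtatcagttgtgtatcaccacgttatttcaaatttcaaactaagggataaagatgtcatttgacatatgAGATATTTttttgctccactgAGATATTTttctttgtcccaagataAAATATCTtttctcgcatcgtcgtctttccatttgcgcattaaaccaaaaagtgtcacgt
LUX: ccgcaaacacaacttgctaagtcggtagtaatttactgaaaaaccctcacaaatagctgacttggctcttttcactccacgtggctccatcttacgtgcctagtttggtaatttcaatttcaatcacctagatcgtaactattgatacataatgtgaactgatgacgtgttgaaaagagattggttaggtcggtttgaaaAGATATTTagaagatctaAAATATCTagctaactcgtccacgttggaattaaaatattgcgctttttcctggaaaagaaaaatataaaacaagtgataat
TOC1: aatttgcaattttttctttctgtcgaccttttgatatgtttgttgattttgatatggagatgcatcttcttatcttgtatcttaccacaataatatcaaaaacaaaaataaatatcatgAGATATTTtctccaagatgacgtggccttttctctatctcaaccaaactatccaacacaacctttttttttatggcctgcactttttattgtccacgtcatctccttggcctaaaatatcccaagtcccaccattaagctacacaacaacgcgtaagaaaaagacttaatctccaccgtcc
JMJD5: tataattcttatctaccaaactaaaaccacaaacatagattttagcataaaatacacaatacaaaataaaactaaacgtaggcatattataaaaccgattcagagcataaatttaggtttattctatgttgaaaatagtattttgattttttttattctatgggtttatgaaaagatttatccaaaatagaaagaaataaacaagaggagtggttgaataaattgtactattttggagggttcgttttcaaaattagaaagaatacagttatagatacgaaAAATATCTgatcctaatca
LNK3: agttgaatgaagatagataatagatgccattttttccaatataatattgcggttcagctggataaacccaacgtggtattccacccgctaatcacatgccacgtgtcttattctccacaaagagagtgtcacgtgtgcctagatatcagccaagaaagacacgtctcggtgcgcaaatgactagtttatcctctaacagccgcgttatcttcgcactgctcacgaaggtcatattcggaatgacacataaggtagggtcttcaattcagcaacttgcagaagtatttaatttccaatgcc

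Of all 26711 promoters of this length, 5.77% held an evening element. The share was 33.5% (105 of 313) among genes at least 2-fold lower in link1link2 at ZT10, 16.9% (360 of 2127) among all lower genes and 4.63% among 15300 genes not called. Among genes at least 2-fold higher it was 4.47% (19 of 425). By size of the log2 fold change, called or not, it was 15.3% at -1 to -0.5, 27.1% at -2 to -1, 46.5% at -3 to -2 and 40% (14 of 35) under -3. None of 49 promoters of genes over 3 held it. Of the 12 lowest called genes with separate groups and a mean log2 CPM of at least 1, 11 had a promoter in the annotation and 3 of these held an evening element, while 0 of the 12 highest by the same rule did. These shares describe letters in a window, and a match is not evidence of binding.

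By time of day, the share among genes at least 2-fold lower was 25.2% at ZT6 and 33.5% at ZT10. It was 14.2% at ZT14, 9.69% at ZT18, 5.33% at ZT22 and 9.35% at ZT2. Among genes at least 2-fold higher it lay between 4.47% at ZT10 and 13.7% at ZT2. In genes at least 2-fold lower at ZT10 the 141 matches had a median position of -66, against -120 for the 1640 matches in all promoters. More than 1 match was found in 26 of the 313 promoters and in 89 of all 26711. For comparison, the CCA1-binding site, AAAAATCT or AGATTTTT, was found in 10.5% of promoters of genes at least 2-fold lower, 6.59% of genes at least 2-fold higher and 7.94% of all. The G-box, CACGTG, which reads the same on both strands, was in 11.8%, 16% and 7.62% of the same sets. In the wider window of 1000 bases before the start, 42.5% of genes at least 2-fold lower, 12.9% of genes at least 2-fold higher and 15.4% of all held an evening element.

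**Figure D3:**
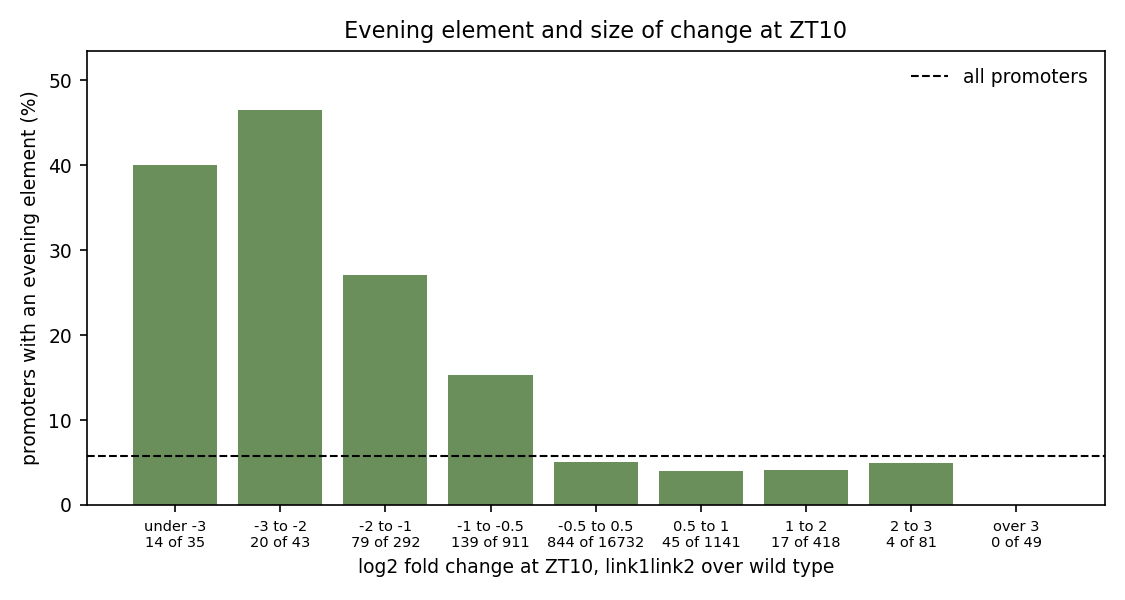
Percentage of 300-base promoters with an evening element (bars) in bins of log2 fold change at ZT10, link1link2 over wild type; the numbers under each bin are promoters with the element of all promoters in it, and the dashed line is the share in all promoters, 5.77%. Bins under -0.5 stand above the line, from 15.3% to 46.5%, and bins over -0.5 below it.

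Flowering in long days depends on CONSTANS (CO), which is active in the late afternoon, and on its target FT, the mobile flowering signal. FT had 2 counts over the 3 link1link2 libraries and 82 counts over the 3 wild-type libraries. Per library it had 0.119, 0 and 0.106 CPM in link1link2, against 3.46, 2.36 and 2.81 CPM in wild type. The ratio of the group totals was 37.8-fold lower in link1link2, with a 95% interval of 10.1 to 317 that covers counting error only, and the fit gave an adjusted p of 5.42e-08. SOC1, a flowering integrator downstream of FT, had 7.28, 6.34 and 10.2 CPM in link1link2, against 21.5, 22.9 and 22.2 CPM in wild type (-1.47 ± 0.20). CO itself had 1.79, 0.887 and 1.8 CPM in link1link2, against 2.68, 1.53 and 3.72 CPM in wild type, with groups that overlapped (-0.87 ± 0.30, adjusted p = 0.0288), and its call was lost without wild-type replicate A or C or link1link2 replicate B. AT5G15845 overlaps CO by 5 bases on the opposite strand and held over 12 times its counts, so this value is uncertain.

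CDF factors repress CO and are the substrates of FKF1. CDF1 had 18.6, 18.6 and 21.8 CPM in link1link2, against 11.4, 11.7 and 10.5 CPM in wild type (0.83 ± 0.15, adjusted p = 7.59e-05), and CDF2 had 12.4, 12.04 and 8.79 CPM in link1link2, against 5.48, 4.86 and 5.7 CPM in wild type (1.03 ± 0.18). CDF3 (0.22) and AT1G69570 (0.45) were higher by less, and each lost its call without at least 1 library, among them link1link2 replicate C for CDF3 and wild-type replicate B for AT1G69570. AT1G69572 overlaps AT1G69570 by 1241 bases on the opposite strand and held 84.7% of its counts, so this value is uncertain. Relatives of CO moved in opposite directions. COL2 had 21.5, 21.8 and 19.3 CPM in link1link2, against 7.49, 5.42 and 6.2 CPM in wild type (1.70 ± 0.13), and COL1 had 26.96, 24.98 and 26.5 CPM in link1link2, against 5.48, 4.86 and 3.31 CPM in wild type (2.56 ± 0.19), although AT5G15845 overlaps COL1 too and held 90.8% of its counts. COL9, a repressor of CO, had 27.3, 25.6 and 27.9 CPM in link1link2, against 124, 136 and 128 CPM in wild type (-2.26 ± 0.08, adjusted p = 4.97e-26). FLC, a repressor of flowering that responds to winter cold, was not called (5.93 against 5.04 CPM in link1link2 and wild type, adjusted p = 0.501), and SVP, its partner, was not either (-0.11, adjusted p = 0.323). Of 21 genes of photoperiod and flowering that passed the filter, 9 were higher and 4 lower, against 11.4% and 10.7% of all genes. The other 8 were not called, and the median of the list was 0.20. TSF, with 0 counts in link1link2 and 1 in wild type, was left out by the filter.

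Photoreceptor transcripts changed by small amounts. Of 10, 3 were higher and 2 lower, against 11.4% and 10.7% of all genes tested. All 10 lay within -0.52 to 0.41. PHYB, the main red-light receptor of light-grown plants, had 105, 111 and 119 CPM in link1link2, against 80.5, 87.2 and 84.5 CPM in wild type (0.41 ± 0.07). UVR8, the UV-B receptor, had 77.2, 80.9 and 71.4 CPM in link1link2, against 106, 115 and 107 CPM in wild type (-0.52 ± 0.06). CRY2 was lower (-0.44 ± 0.06) and its relative CRY1 higher (0.18 ± 0.05).

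Downstream of the receptors, 9 of 18 light-signalling genes were higher and 2 were lower, against 11.4% and 10.7% of all genes tested. The SPA proteins form an E3 ligase with COP1 that degrades light-signalling factors. SPA3 had 78.3, 83.6 and 84.5 CPM in link1link2, against 41.5, 42.4 and 42.7 CPM in wild type (0.96 ± 0.06), and SPA4 had 32.6, 38.03 and 33.6 CPM in link1link2, against 16.9, 15.3 and 18.3 CPM in wild type (1.03 ± 0.10). SPA1 (0.51) and COP1 (0.30) were higher by less, and SPA2 was not called (-0.10, adjusted p = 0.504). HYH, which promotes light responses, rose (1.102 ± 0.15), whereas its homologue HY5 fell slightly, with 10.97, 11.4 and 11.1 CPM in link1link2, against 14.6, 14.03 and 15.6 CPM in wild type (-0.41 ± 0.13, adjusted p = 0.0164), a call that did not hold when link1link2 replicate A or C or wild-type replicate C was left out.

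PIF factors promote elongation. PIF5 had 99.5, 98.8 and 105 CPM in link1link2, against 46.7, 48.6 and 38.3 CPM in wild type (1.19 ± 0.09, adjusted p = 7.49e-15). PIF4 had 104, 99.3 and 108 CPM in link1link2, against 118, 107 and 107 CPM in wild type, with overlapping groups (-0.09 ± 0.07, adjusted p = 0.429). At ZT14, 4 h later, PIF4 stood at 70.5 CPM in link1link2 and 8.65 CPM in wild type, and the difference at ZT10 departed from the mean of the other 5 times by -1.81 ± 0.09 (adjusted p = 4.33e-20). HFR1, which blocks PIF action, rose (1.32 ± 0.14), and PAR1, another such inhibitor, fell (-1.27 ± 0.19). Auxin and elongation genes, many of which respond to PIFs, gave 4 of 19 higher and 0 lower, a share of 21.05% that is close to the 22.1% of all genes tested. The 4 were ATHB2 (1.05 ± 0.17), IAA1 (0.74 ± 0.19), YUC8 (0.74 ± 0.21) and GH3.3 (0.69 ± 0.21), the last of these not called without replicate A of either genotype. Of 8 gibberellin and brassinosteroid genes, GA20OX1, a step of gibberellin synthesis, was higher (1.25 ± 0.40) and lost its call without wild-type replicate A or link1link2 replicate C. GID1A, CPD and BR6OX2 were lower, within -0.47 to -0.34, and BR6OX2 was not called when link1link2 replicate A or wild-type replicate C was left out. Calls made up 50% of this list, against 22.1% of all genes tested.

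Of 12 B-box (BBX) zinc-finger genes tested, 8 were higher and 3 lower, against 11.4% and 10.7% of all genes. The median log2 fold change of the 12 was 1.63. BBX18 had 13.6, 14.2 and 12.3 CPM in link1link2, against 3.02, 2.64 and 3.22 CPM in wild type (2.15 ± 0.17), and BBX19 had 7.04, 6.72 and 6.36 CPM in link1link2, against 1.56, 0.694 and 1.65 CPM in wild type (2.27 ± 0.20). Both are negative regulators in light signalling. BBX16, which was not on the list and ranked among the 12 highest genes, had 26.5, 30.4 and 28.9 CPM in link1link2, against 1.9, 1.39 and 1.57 CPM in wild type (4.12 ± 0.20). BBX25, a repressor of light responses, had 36.6, 35.5 and 37.2 CPM in link1link2, against 6.93, 6.67 and 5.62 CPM in wild type (2.53 ± 0.13), although a neighbour overlapping by 48 bases held 208% of its counts.

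BBX32 had 64 counts in link1link2 and 3 in wild type (23.1-fold, 95% counting interval 7.57 to 115). AT3G21140 overlaps BBX32 by 13 bases on the same strand and held 258% of its counts, so this value is uncertain. BBX30 had 29 and 2 counts (15.7-fold, 3.98 to 136). BBX22, an activator that acts with HY5, was lower, with 20.8, 20.9 and 23.2 CPM in link1link2, against 74.1, 71.7 and 72.6 CPM in wild type (-1.75 ± 0.08, adjusted p = 5.35e-22). BBX21, also an activator with HY5, was slightly lower (-0.30 ± 0.08), and the call of BBX20 was lost without replicate B or C of either genotype. BBX29 was not called (0.42), and BBX23 was at 0 in all 6 libraries.

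In the flavonoid list the genes with the highest log2 fold changes were 3 enzymes of the branch that makes anthocyanin pigments. DFR, dihydroflavonol reductase, had 13.5, 11.8 and 14.1 CPM in link1link2, against 0.223, 0 and 0.248 CPM in wild type (6.11 ± 0.87, adjusted p = 5.42e-06). LDOX, the next enzyme, had 16.2, 16.7 and 18.3 CPM in link1link2, against 0.894, 0.417 and 1.07 CPM in wild type (4.32 ± 0.44). UF3GT, which adds a sugar to anthocyanins, had 169 counts in link1link2 and 3 in wild type (61.1-fold, 95% counting interval 20.6 to 299). Every link1link2 library exceeded every wild-type library for these 3 enzymes, as for 19.3% of all genes tested. DFR, LDOX and UF3GT were called higher at ZT6 too (log2 fold changes of 4.11, 2.98 and 4.13). Their differences at ZT10 were not told apart from those at ZT6 (edgeR, adjusted p = 0.633, 0.339 and 0.553).

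Among regulators of these enzymes some were higher and 1 was lower. PAP1, a MYB activator of anthocyanin genes, had 2.27, 1.65 and 2.65 CPM in link1link2, against 0.223, 0 and 0.413 CPM in wild type (3.10 ± 0.63, adjusted p = 0.000242). EGL3, a bHLH partner of PAP1, rose (0.79 ± 0.15), and GL3 (1.16) lost its call without wild-type replicate B. TTG1, which joins their complex, was not called (-0.11, adjusted p = 0.359), and PAP2, a relative of PAP1, was left out by the filter on low counts. TT8, another partner, was left out by it too. It had 22 counts in link1link2 and 0 in wild type, which is at least 7.95-fold higher with a floor of 3 counts over the group. MYBL2, a repressor of DFR and its neighbours, fell, with 6.44, 5.45 and 8.26 CPM in link1link2, against 37.99, 39.99 and 25.6 CPM in wild type (-2.32 ± 0.20, adjusted p = 1.82e-10).

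Other steps of the pathway were within a log2 fold change of 1, and no test compared them with the anthocyanin enzymes. CHS, the entry enzyme, had 157, 159.6 and 166 CPM in link1link2, against 109, 124 and 141 CPM in wild type (0.37 ± 0.14, adjusted p = 0.0632). CHI (0.19), TT7, a flavonoid hydroxylase (0.21), and FLS1, of the flavonol branch (-0.04), were not called. F3H, which makes dihydroflavonols, was higher (0.38 ± 0.12, adjusted p = 0.0256), though not without wild-type replicate B or C or link1link2 replicate B. AT3G51238 overlaps F3H by 1588 bases on the opposite strand and held 107.7% of its counts, so this value is uncertain. CHIL (0.93 ± 0.15) and the flavonol glycosyltransferases UGT78D1 (0.60 ± 0.08) and UGT78D2 (0.70 ± 0.11) were higher, as were the phenylpropanoid enzymes PAL2, C4H and 4CL1, at 0.44 to 0.51. MYB12, which activates early genes, fell (-0.99 ± 0.23, adjusted p = 0.00121). Of 26 genes tested, 14 were higher and 2 lower, against 11.4% and 10.7% of all genes, and 10 were not called. Without wild-type replicate B 11 were higher and 2 lower, against 10.7% and 8.15%.

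In chlorophyll synthesis the called steps were all higher. HEMA1, glutamyl-tRNA reductase and the first committed step, had 264, 278 and 365 CPM in link1link2, against 89.4, 101 and 76.7 CPM in wild type (1.77 ± 0.15, adjusted p = 8e-10). GUN4, which assists magnesium chelatase, had 159.8, 169 and 168 CPM in link1link2, against 63.1, 59.2 and 57.8 CPM in wild type (1.47 ± 0.07). CHLH, the large chelatase subunit, had 2423, 2395 and 2811 CPM in link1link2, against 1149.6, 1164 and 1028 CPM in wild type (1.19 ± 0.10), and CAO, which makes chlorophyll b, had 239, 231 and 242 CPM in link1link2, against 103, 90.96 and 91.4 CPM in wild type (1.32 ± 0.08). Groups were separate for these 4 genes, with link1link2 higher, as for 19.3% of all genes tested. The other subunits of the chelatase, CHLD (-0.11) and CHLI2 (-0.14), were not called, and CHLI1 was higher by 0.20, though not without link1link2 replicate C. In all, 6 of 15 genes were higher and 0 lower, against 11.4% and 10.7% of all genes tested.

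Of 21 light-harvesting genes, 9 were higher and 1 lower, against 11.4% and 10.7% of all genes, and 11 were not called. The LHCB2 genes, trimeric antenna proteins of photosystem II, rose. LHCB2.3 had 728, 787 and 674 CPM in link1link2, against 347, 259 and 248 CPM in wild type (1.36 ± 0.16), LHCB2.2 rose by 1.01 ± 0.14 and LHCB2.1 by 0.83 ± 0.13. The LHCB1 genes, near-identical copies whose reads may be split between them, ranged from -0.62 to 1.01. LHCB4.3, the lower member, lost its call without replicate B of either genotype, wild-type A or link1link2 C. In the Calvin cycle, RCA, the activase of Rubisco, had 6725, 6802 and 7529.7 CPM in link1link2, against 3491, 3449 and 3313 CPM in wild type (1.04 ± 0.07, adjusted p = 7.39e-16), and FBA1, an aldolase, had 1022, 1058 and 1196 CPM in link1link2, against 472, 495 and 485 CPM in wild type (1.18 ± 0.09). Of 12 genes of photosystem cores and the Calvin cycle, 7 were higher and 0 lower, against the same shares of all genes.

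Sigma factors direct the plastid-encoded polymerase to chloroplast genes. SIG5, which the clock and light control, had 27.7, 25.5 and 24.8 CPM in link1link2, against 11.5, 9.3 and 9.09 CPM in wild type (1.39 ± 0.10), and SIG1 had 106, 112 and 122 CPM in link1link2, against 49.6, 51.5 and 39.1 CPM in wild type (1.29 ± 0.10). SIG3 (-0.48 ± 0.08) and SIG4 (-0.78 ± 0.09) were lower, and SIG2 and SIG6 were not called. In SIG4, a locus overlapping on the opposite strand held 61.3% of its counts.

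Leaf starch is made in the light and broken down at night, and its breakdown genes peak in the late day. Of 19 breakdown genes tested, 12 were lower and 2 higher, against 10.7% and 11.4% of all genes. The other 5 were not called, and the list had a median log2 fold change of -0.92. Glucan phosphorylation opens the granule. GWD1, the glucan water dikinase, had 198, 201 and 214 CPM in link1link2, against 893, 793 and 888 CPM in wild type (-2.07 ± 0.08, adjusted p = 1.55e-24), and PWD, the second kinase, had 155, 164 and 174 CPM in link1link2, against 421, 397 and 419 CPM in wild type (-1.32 ± 0.07). SEX4, the phosphatase that removes these phosphates, had 32.6, 35.1 and 34.6 CPM in link1link2, against 89.6, 82.9 and 91.96 CPM in wild type (-1.37 ± 0.09). Each of the 3 transcripts was lower in all link1link2 libraries than in any wild-type library, as were 18.9% of all genes tested.

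Debranching enzyme ISA3 had 24.9, 25.2 and 25.8 CPM in link1link2, against 89.6, 75.3 and 85.3 CPM in wild type (-1.72 ± 0.08), and LDA fell (-1.16 ± 0.11). The disproportionating enzymes DPE1 (-1.43 ± 0.07) and DPE2 (-1.07 ± 0.07), the phosphorylases PHS1 (-0.92 ± 0.09) and PHS2 (-1.40 ± 0.09) and the amylase AMY3 (-1.09 ± 0.10) were lower as well. BAM3, the main beta-amylase of leaves at night, had overlapping groups (179, 178 and 224 CPM in link1link2, against 211, 230.1 and 254 CPM in wild type) and was not called (-0.26 ± 0.14, adjusted p = 0.205). The maltose exporter MEX1 was not called either (-0.05). Both higher genes, BAM1 (0.60 ± 0.08) and BAM9 (0.97 ± 0.11), are relatives of BAM3. A locus overlapping BAM9 on the opposite strand held 64.6% of its counts. Evening elements were found in the promoters of 6 of the 12 lower genes, namely GWD1, PWD, BAM6, ISA3, DPE1 and PHS1. The share was 16.9% among all genes lower at ZT10 and 5.77% among all promoters. BAM6 was not called without link1link2 replicate C.

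Genes of starch synthesis were divided, with 4 of 16 higher and 6 lower, against 11.4% and 10.7% of all genes tested. GBSS1, which makes amylose and which CCA1 and LHY are known to bind, had 31.7, 31.4 and 30.4 CPM in link1link2, against 4.36, 2.64 and 3.88 CPM in wild type (3.07 ± 0.19, adjusted p = 1.3e-13). The branching enzyme SBE2.1 had 98.2, 91.4 and 111 CPM in link1link2, against 259.8, 239 and 253 CPM in wild type (-1.32 ± 0.07), PGM1 had 83.4, 90.02 and 92.7 CPM in link1link2, against 172, 163 and 182 CPM in wild type (-0.96 ± 0.07) and SS4, which initiates granules, fell (-0.66 ± 0.09). ADG1 and APL1, subunits of the committed enzyme, were not called (-0.18 and 0.02). Among 11 transcripts known to rise when sugar is short, 7 were lower and 0 higher, against 10.7% and 11.4% of all genes tested. Without wild-type replicate B only 2 were lower, against 8.15% of all genes. DIN1 was the lowest, with 6.8, 2.79 and 3.28 CPM in link1link2, against 12.8, 15.4 and 8.84 CPM in wild type (-1.48 ± 0.37), and kept its call without that library (-1.29, adjusted p = 0.0238).

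Cold-regulated genes formed the list with the lowest median, -2.06, with 11 of 14 lower and 0 higher, also without wild-type replicate B. Over all genes tested, 10.7% were lower and 11.4% higher. The labels name no cold treatment. The CBF genes encode the activators of the cold response and are gated by the clock. CBF3 had 0.716, 1.27 and 0.424 CPM in link1link2, against 10.4, 12.1 and 16.2 CPM in wild type (-4.03 ± 0.36, adjusted p = 2.74e-11). CBF1 had 3 counts in link1link2 and 55 in wild type (16.9-fold lower, 95% counting interval 5.49 to 84.5), and CBF2 was not called (0.862 against 1.54 CPM in link1link2 and wild type). These genes lie side by side and are similar in sequence, so that their reads may be shared. ICE1, an activator of CBF3, had 59.2, 56.5 and 56.4 CPM in link1link2, against 55.2, 58.5 and 52.96 CPM in wild type and was not called (0.05 ± 0.08, adjusted p = 0.72).

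Targets of the CBFs were lower too. COR15A, a protein that protects chloroplast membranes in the cold, had 21.9, 25.5 and 24.5 CPM in link1link2, against 561, 517 and 838 CPM in wild type (-4.74 ± 0.31, adjusted p = 4.44e-12). COR15B, its near copy, fell (-4.66 ± 0.23), with reads that may be shared and a locus overlapping on the opposite strand holding 53.3% of its counts. RD29A had 42.6, 51.98 and 52.97 CPM in link1link2, against 649.9, 608 and 744 CPM in wild type (-3.76 ± 0.20). The dehydrin COR47 had 269, 323 and 279.9 CPM in link1link2, against 799, 761 and 821 CPM in wild type (-1.45 ± 0.09), and ERD10, another dehydrin, fell (-0.92 ± 0.13). KIN1 (-2.66 ± 0.31), KIN2 (-2.82 ± 0.13), COR413IM1 (-1.13 ± 0.09) and COR413-PM1 (-1.01 ± 0.07) fell as well. At ZT6, ZT10 and ZT14 RD29A averaged 80.4, 49.2 and 42.6 CPM in link1link2, against 139, 668 and 59.2 CPM in wild type, with a maximum at ZT10 in wild type that was not seen in link1link2.

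In nitrogen assimilation, 5 of 8 genes were higher and 0 lower, against 11.4% and 10.7% of all genes tested. NIA2, the main nitrate reductase, had 1064, 963 and 1346 CPM in link1link2, against 356, 511 and 311 CPM in wild type (1.52 ± 0.18, adjusted p = 2.97e-07). NIR1, nitrite reductase, had 375, 374 and 455 CPM in link1link2, against 270.2, 270.2 and 289 CPM in wild type (0.54 ± 0.08), GLU1, the main glutamate synthase of leaves, rose by 0.59 ± 0.08, and ASN2, asparagine synthetase, by 0.77 ± 0.19, the last of these not called when the ZT10 libraries were fitted alone (0.77). Glucosinolate and sulfate genes gave 11 of 15 higher and 0 lower, against the same shares. Without wild-type replicate B 9 were higher, against 10.7% of all genes. CYP79F1, which starts the synthesis of aliphatic glucosinolates, had 227, 213 and 207 CPM in link1link2, against 118, 83.9 and 118 CPM in wild type (1.01 ± 0.17). APR2, the main sulfate-reducing enzyme, had 155, 182 and 185 CPM in link1link2, against 90.2, 79.3 and 85.4 CPM in wild type (1.03 ± 0.13). MYB29, an activator of aliphatic glucosinolate genes, rose by 0.80 ± 0.12, and CYP83A1 and CYP79B3, enzymes of the pathway, by 0.81 ± 0.13 and 0.67 ± 0.08.

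Catalase genes moved in opposite directions. CAT2, the catalase of photorespiring leaves, had 855, 896 and 1170.5 CPM in link1link2, against 182, 215 and 172 CPM in wild type (2.36 ± 0.15, adjusted p = 2.64e-12), while CAT3, an evening transcript, had 1101, 1142 and 1293 CPM in link1link2, against 1683, 1750.4 and 1598 CPM in wild type (-0.51 ± 0.08) and CAT1 had 35.4, 31.3 and 40.9 CPM in link1link2, against 74.2, 74.2 and 65.2 CPM in wild type (-0.98 ± 0.12). NDA1, an alternative NADH dehydrogenase of mitochondria, had 60.2, 63.1 and 73.4 CPM in link1link2, against 6.59, 8.75 and 6.2 CPM in wild type (3.23 ± 0.11). In the respiration and catalase list 3 of 10 genes were higher and 3 lower, against 11.4% and 10.7% of all genes tested. Without wild-type replicate B 2 were lower, against 8.15% of all genes. Of 6 heat-response genes, 3 were higher and 1 lower, against 11.4% and 10.7% of all genes tested. The list was led by HSFA2 (1.35, not called without any 1 of 5 of the ZT10 libraries) and the chaperone HSP90-1 (1.28 ± 0.15).

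In the jasmonate and defence list 1 of 7 genes was higher, VSP2 (0.80 ± 0.24), and it was not called without wild-type replicate B or link1link2 replicate A. That is a share of 14.3% called, against 22.1% of all genes tested. Of 7 genes used as references in this field, AT5G60390 was higher (0.37 ± 0.07) and the other 6, ACT2, UBQ10, PP2AA3, UBC9, AT4G34270 and AT2G28390, lay within -0.13 to 0.16 and were not called. Of 12 root markers, SCR was higher (0.34 ± 0.08), and of 7 markers of dividing cells none was called. Calls made up 8.33% of the root list, 14.3% of the reference list and 0% of the dividing list, against 22.1% of all genes tested. Of 6 seed markers 3 passed the filter and none was called, although CRU1 had 68 counts in link1link2 and 3 in wild type. The seed markers summed to 2.03, 0.254 and 11.5 CPM in link1link2, against 0.223, 1.81 and 2.4 CPM in wild type. Of 5 leaf markers 4 were higher, RCA, RBCS1A, CA1 and GAPB, against 11.4% of all genes tested. The 5 markers summed to 27513 to 29559.5 CPM in link1link2 and 21219 to 21728 CPM in wild type. Their part in the higher chloroplast-related genes was not tested.

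Ranked over all genes, the 12 lowest that met the rule on level and separation included COR27, AT4G33980, COR15A and COR15B. AT1G70640, a protein with a PB1 domain, had 0 counts in link1link2 and 196 in wild type, at least 60.2-fold lower with a floor of 3 counts over the group. GolS3, galactinol synthase, a known CBF target, had 1 and 126 counts (116-fold lower, 95% counting interval 20.5 to 4624). AT5G62360, a pectin methylesterase inhibitor-like protein with 2 evening elements, had 1.91, 1.65 and 1.7 CPM in link1link2, against 91.2, 78.05 and 103 CPM in wild type (-5.69 ± 0.18). AT4G33467 was also among them (-5.31 ± 0.61).

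The difference at ZT10 was also tested against the mean difference at the other 5 times. AT1G70640, GolS3 and AT4G33467 could not pass this test, since both genotypes had 0 counts at ZT18. AT3G01345 had 1.91, 1.14 and 1.48 CPM in link1link2, against 267, 294 and 272 CPM in wild type (-7.50 ± 0.18), a difference from the other times of 0.32 ± 0.32 (adjusted p = 0.544). MRD1 (-7.10 ± 0.24) and AT1G14250 (-6.59 ± 0.48) gave no call there (adjusted p of 0.275 and 0.306), and were lower in link1link2 at each of the 6 times. AT1G69140, a transcribed pseudogene (-6.60 ± 0.23), had 0 counts in link1link2 at ZT6 and ZT22, and the SE of this test was 31.1, too wide for a call. Its log2 fold change was -0.05 at ZT2 (not called) and -2.90 at ZT14, and the difference at ZT10 departed from that at ZT14 by -3.70 ± 0.49 (adjusted p = 6.72e-07). In continuous light AT3G01345, MRD1 and AT1G14250 were lower again, by log2 fold changes of -9.10, -5.99 and -4.09. HEI10 overlaps MRD1 on the opposite strand by 1446 bases and held 102% of its counts.

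The 12 highest genes included DFR, UF3GT, LDOX, LNK3, LNK4 and BBX16. GSTF12, a glutathione transferase needed to store anthocyanins, had 7.75, 12.6 and 10.6 CPM in link1link2, against 0.782, 0.417 and 0.661 CPM in wild type (3.99 ± 0.48), with an overlapping locus that held many times its counts. BETA-OHASE 2, a carotene hydroxylase, had 9.9, 8.24 and 8.79 CPM in link1link2, against 0.559, 0.417 and 0.496 CPM in wild type (4.14 ± 0.40), with an overlapping locus at 149.6% of its counts. SAG29, a sugar transporter of the SWEET family, had 5.61, 7.48 and 8.47 CPM in link1link2, against 0.223, 0.278 and 0.331 CPM in wild type (4.61 ± 0.75). AT2G15020 had 31.02, 35.9 and 37.3 CPM in link1link2, against 2.12, 2.22 and 0.826 CPM in wild type (4.43 ± 0.20), AT1G65490 11.3, 14.6 and 14.5 CPM in link1link2, against 1.12, 0.278 and 0.578 CPM in wild type (4.299 ± 0.34) and AT1G65870, a dirigent-like protein, 7.63, 6.47 and 7.63 CPM in link1link2, against 0.559, 0.278 and 0.826 CPM in wild type (3.57 ± 0.27). For none of the 12 did the groups overlap, which was part of the rule.

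By absolute level, the largest shifts were the drop of GRP7, the gain of RCA, LHCB1.1 (8072 against 3999.7 CPM in link1link2 and wild type) and RBCS1A (11617 against 9487 CPM), and the drop of THI1, an enzyme of thiamine synthesis (2387 against 4476 CPM). The chloroplast-encoded locus ATCG01180 also ranked here, with 3013, 1814 and 3397 CPM in link1link2, against 1323, 11133 and 1443 CPM in wild type. It was not called (-0.76 ± 0.62, adjusted p = 0.446), and wild-type replicate B alone set its mean, as its log2 fold change was 1.01 without that library.

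Across all genes, the log2 difference at ZT10 was set against the mean difference at the other 5 times, a mean that includes ZT6. This test called 4225 genes (20.6%), 2070 with a higher (10.1%) and 2155 with a lower (10.5%) difference at ZT10. Against ZT6 alone 1399 genes (6.82%) were called, 3.95% higher and 2.87% lower, and against ZT14 alone 2353 (11.5%), 5.8% higher and 5.67% lower. In the day and evening clock list 13 of 15 genes were called in the test against the other 5 times, in the dawn list 9 of 10, among starch breakdown genes 13 of 19 and among cold genes 9 of 14. Against ZT6 alone fewer members of the clock and starch lists were called. Of the day and evening clock genes, 2 had a higher and 8 a lower difference at ZT10 than at ZT6, and PRR5 (0.22 ± 0.19, adjusted p = 0.644), FKF1 (1.11 ± 0.63, adjusted p = 0.395) and GI were not called. Of the starch breakdown genes, 1 was higher and 4 were lower, and ISA3 (-0.07 ± 0.14, adjusted p = 0.869), DPE1 and PHS2 were among those not called. In the dawn list 6 were higher and 1 lower, and among cold genes 1 was higher and 9 were lower. The lower starch breakdown genes were thus mostly not told apart from their ZT6 difference.

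The 8 genes with the smallest p in this test were TOC1, OEP16-1, AT1G64500, PHT2;1, VTC2, LUX, COL9 and JMJD5. OEP16-1, a channel of the outer plastid envelope, had 67.996, 73.2 and 70.6 CPM in link1link2, against 266, 260.4 and 288 CPM in wild type and departed by -1.99 ± 0.07 (adjusted p = 1.35e-25). AT1G64500, a glutaredoxin family protein, had 51.9, 55.8 and 53.7 CPM in link1link2, against 6.15, 5.55 and 6.28 CPM in wild type and departed by 3.29 ± 0.12. PHT2;1, a plastid phosphate transporter, had 409.8, 395 and 451 CPM in link1link2, against 148, 154 and 148 CPM in wild type and departed by 1.62 ± 0.07. VTC2, the controlling enzyme of ascorbate synthesis, had 271, 268 and 306 CPM in link1link2, against 108, 110.3 and 116 CPM in wild type and departed by 1.82 ± 0.08. Groups were separate for these 4 genes, as for 38.2% of all genes tested. At ZT2 AT1G64500 averaged 201 CPM in link1link2 and 216 CPM in wild type.

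**Figure D4:**
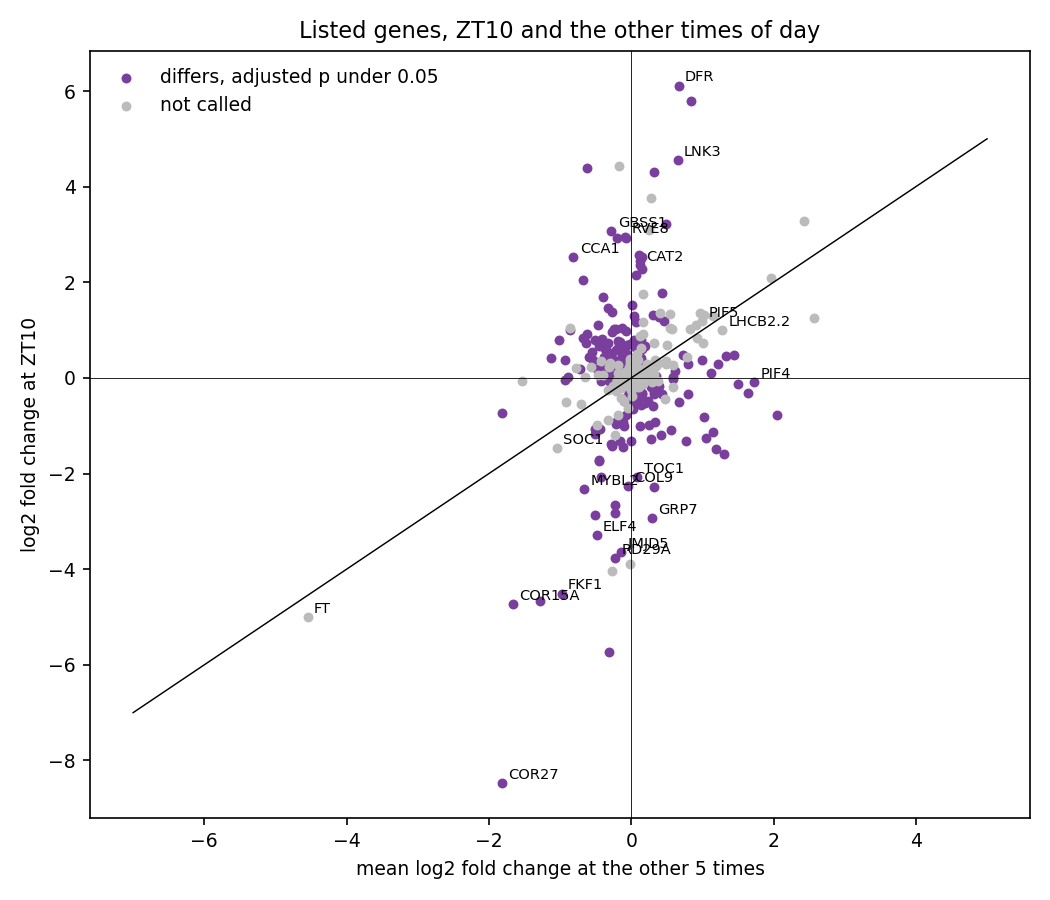
Log2 fold change at ZT10 (y axis) against the mean log2 fold change at the other 5 times (x axis), link1link2 over wild type, for the tested genes of the lists; purple points differed by the test of that difference and grey points were not called. The line marks equal values: FT lies near it, while COR27, FKF1, GRP7 and JMJD5 lie far below it and DFR and LNK3 far above it. For FKF1 and DFR the difference at ZT10 was not told apart from that at ZT6 alone.

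A further view placed the ZT10 libraries between the wild-type levels of ZT6 (set to 0) and ZT14 (set to 1) on the log2 scale. For 91 genes at least 4-fold higher at ZT14 than at ZT6 in wild type, the median position was 0.41 in link1link2 at ZT10 and 0.60 in wild type at ZT10, or 0.65 without wild-type replicate B. For 233 genes at least 4-fold lower at ZT14 it was 0.38 in link1link2 and 0.53 in wild type. The spread was wide, with quartiles of 0.13 to 0.64 in link1link2 and 0.36 to 0.91 in wild type for the 91 genes. Of these 91 genes 34 were lower and 11 higher at ZT10, and of the 233 genes 97 were higher and 42 lower.

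The libraries from continuous light share none with ZT10. Their plants were 9 days old per the sample labels, whereas the submitters' study description states more time in that light, so that their age is uncertain. In continuous light 1039 of 20158 genes were called (5.15%), 2.18% higher and 2.98% lower, but 657 without wild-type continuous-light replicate B. Of the genes tested in both settings, 502 were called in both, which is 11.2% of the 4482 ZT10 calls and 48.7% of the 1031 calls in continuous light. Of the 502, 306 went the same way, 190 lower and 116 higher, while 132 were higher at ZT10 and lower in continuous light and 64 the reverse. COR27 (-3.30 ± 0.32, adjusted p = 8.82e-07), FKF1 (-1.16 ± 0.14), ELF4 (-1.09 ± 0.09), JMJD5 (-1.89 ± 0.14), FT (-4.21 ± 0.70) and MYBL2 (-2.40 ± 0.18) were lower in both. CCA1 (-0.73), LHY (-0.99) and RVE8 (-0.38) were higher at ZT10 and lower in continuous light. GI (1.096 ± 0.07) and PRR7 (0.92 ± 0.07) were lower at ZT10 and higher in continuous light. The anthocyanin gene DFR was not called there (-1.34, adjusted p = 0.0677), and LDOX was lower (-1.37, adjusted p = 0.0446). GRP7 (-0.19, adjusted p = 0.0852) and RD29A (0.07, adjusted p = 0.692) were not called in continuous light.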

How the data were processed

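RNA was measured in seedlings. Libraries were made from polyadenylated RNA with a TruSeq kit, per the labels' protocols, which do not state strand. The file holds unnormalized counts for 33602 loci, as deposited by the authors. TAIR10 is the build named in the submitters' processing notes. How reads were aligned, counted and shared between loci was not given in the sources used here. Of the loci, 32835 (97.7%) matched the TAIR10.1 RefSeq annotation, which gave symbols, overlaps and promoters.

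Counts of the 36 long-day libraries were fitted together in edgeR 4.0.16 (R 4.3.3; robust quasi-likelihood test, filterByExpr, TMM, a mean per genotype and time, 24 residual degrees of freedom), and those of continuous light on their own. Benjamini-Hochberg adjustment covered all genes of a comparison, and adjusted p under 0.05 was called. The SE of a log2 fold change is the one implied by the test. Counts at or under the floor of 3 per group are given as counts with exact intervals, which cover counting error only. The fit was tested on simulated data. Alternatives were other scalings, no filter, DESeq2 1.42.0, the ZT10 libraries alone, each library left out, a block by column letter, and chloroplast loci removed or as a covariate.

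The comparison, the 29 gene lists (357 genes) and the searched motifs were chosen with earlier results of these data known. Named are all clock genes, up to 6 called genes per further list with the largest change and those needed for a step of a pathway, the 12 highest and 12 lowest called genes with separate groups and a mean log2 CPM of at least 1, the 8 genes with the smallest p against the other times and the 6 with the largest change in CPM. Of the listed genes 92 overlap another locus, and for 27 that locus held at least 50% of their counts, so these are uncertain. Promoter sequences of some genes are not reported here.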

Additional observations from a re-analysis of the deposited data

Results flagged for a closer look

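The difference between link1link2 and wild type was itself tested between times of day. The log2 difference at ZT10 departed from the mean of the other 5 times in 4225 genes, from ZT6 in 1399 genes and from ZT14 in 2353 genes (edgeR, adjusted p under 0.05).

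Of the genes with the smallest p against the other 5 times, the departures were -2.17 ± 0.06 for TOC1, -1.99 ± 0.07 for OEP16-1, -2.10 ± 0.09 for LUX, -2.22 ± 0.09 for COL9 and -3.50 ± 0.15 for JMJD5, and 3.29 ± 0.12 for AT1G64500, 1.62 ± 0.07 for PHT2;1 and 1.82 ± 0.08 for VTC2 on the log2 scale. Each was called at ZT10 in the direction of its departure, which the choice of these genes favours, since the departure contains the ZT10 difference.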

How the results depend on the processing

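The count of 4541 genes at ZT10 lay between 3657 and 5095 over the 14 other analyses, and none moved it by over 1.5 times. Leaving out 1 ZT10 library gave 3657 to 3995, DESeq2 3979 and the ZT10 libraries alone 5095. The 4225 genes that departed from the other times became 3471 to 3694 with 1 library left out. In continuous light 1039 calls became 1888 with the letter as a replicate block, and 657 to 929 with 1 library left out, the lowest without wild-type replicate B. Removing chloroplast loci moved the ZT10 split to 2532 higher and 1987 lower. No scaling moved the median of all genes by over 0.1.

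Columns carry letters and labels carry numbers, and no label says that a letter marks a shared batch. With the letter as a replicate block, 4576 genes were called at ZT10. Correlations of the deviations of same-letter libraries were 0.016, -0.137 and 0.033 at ZT10, -0.32 to 0.117 at the other 5 times, and 0.133, 0.0508 and 0.103 in continuous light. A correlation over 0.1 in every pair, the bar for pairing, was not met in any of these sets. In continuous light each library correlated best with its own letter, which is a hint from the data and not from the design.

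Of the listed and named genes, 35 called genes lost the call in at least 1 analysis, among them PRR7, CO and ELF4-L2. The sign turned for ATCG01180, -0.76 as reported and 0.55 once the share of chloroplast counts was a term of the model, and 1.01 without wild-type replicate B. Genes with few counts, such as FT, CBF1 and BBX30, are uncertain in size by at least the counting intervals given. These intervals leave out the spread between libraries. COR27, with 4 counts in link1link2 at ZT10, is uncertain in size too.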
